A study of Mus musculus with 4 samples.

Results

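The genes described here are 8 cytokine genes that group 3 innate lymphoid cells (ILC3s) are known for or are compared on: Il17a, Il17f, Il22, Iltifb, Ifng, Csf2, Il10 and Il2. They were taken by gene symbol from a table of 19504 genes, and each of the 8 had 1 row in it. The table holds 4 Affymetrix arrays, 1 for each of 4 samples of mouse ILC3s sorted as lineage-negative, CD90-high and CD45-low cells. The samples were ILC3s of circZbtb20+/+ mice, of circZbtb20-/- mice, which lack a circular RNA made from the Zbtb20 gene, of Nr4a1+/+ mice, and of Nr4a1-/- mice, which lack the nuclear receptor gene Nr4a1. The tissue, the strain and age of the mice, any stimulation of the cells, the pooling of animals and the kind of deletion are not stated in the sources used here. The study compared each knockout with the wild type named for the same gene. With 1 array for each genotype no genotype has a replicate error of its own, and the precision of each value is limited by this number of arrays.

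ILC3s are tissue-resident lymphocytes without rearranged antigen receptors, and they answer IL-23 and IL-1 from myeloid cells by releasing cytokines within hours. IL-22 acts on epithelial cells, where it drives antimicrobial peptides, mucus and repair, while IL-17A and IL-17F, which act as homodimers and as a heterodimer, call in neutrophils. The transcription factors RORα, AHR and STAT3 act on these genes, and T-bet and STAT4 act on Ifng, the cytokine of type 1 lymphocytes that some ILC3s also make. GM-CSF, the product of Csf2, supports macrophages and dendritic cells, IL-2 from ILC3s supports regulatory T cells, and IL-10 restrains inflammation.

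The upstream sequences of the 3 members that were higher in the circZbtb20 knockout are shown because they carry the contrast described below. They are the 250 bases before the annotated start in RefSeq (GRCm38.p6), 5′ to 3′ on the strand of the gene, and 7 of the 8 members had an entry. Il17a lies on the plus strand (chr1:20730655-20730904), Il17f on the minus strand (chr1:20784271-20784520) and Ifng on the plus strand (chr10:118440796-118441045). Capitals mark the half-site AGGTCA, the letters that RORα and NR4A receptors both read, on either strand.
Il17a: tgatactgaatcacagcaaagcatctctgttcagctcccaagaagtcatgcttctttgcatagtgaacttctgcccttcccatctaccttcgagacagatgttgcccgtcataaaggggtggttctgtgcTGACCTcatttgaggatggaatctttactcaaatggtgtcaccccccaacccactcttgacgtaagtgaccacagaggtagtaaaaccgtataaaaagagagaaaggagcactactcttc
Il17f: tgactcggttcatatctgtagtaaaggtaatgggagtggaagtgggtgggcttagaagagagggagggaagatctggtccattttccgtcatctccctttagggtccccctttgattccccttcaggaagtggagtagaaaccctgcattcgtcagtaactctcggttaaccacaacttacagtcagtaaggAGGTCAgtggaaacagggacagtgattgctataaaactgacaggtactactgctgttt
Ifng: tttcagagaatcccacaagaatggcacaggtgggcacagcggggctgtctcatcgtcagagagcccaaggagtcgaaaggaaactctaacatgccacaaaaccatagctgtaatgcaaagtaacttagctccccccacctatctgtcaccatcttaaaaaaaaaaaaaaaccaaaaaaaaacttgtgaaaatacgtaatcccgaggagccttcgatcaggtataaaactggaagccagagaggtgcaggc
The half-site was found 1 time in Il17a, on the opposite strand as TGACCT and beginning 120 bases before the start. In Il17f it was found 1 time on the gene strand, 58 bases before the start. Iltifb also held it 1 time, 115 bases before its start, while Ifng, Il22, Csf2 and Il2 did not. Of 32851 promoter windows of this length, 4607 held it on either strand. The NFAT core GGAAA, present on either strand in 55.6% of windows, was found 2 times in Il17f, 1 time in Ifng and not in Il17a. The AP-1 letters TGANTCA, present in 6.75% of windows, were found 1 time in Il17a and in neither of the others. All 3 held TATAAA on the gene strand, which 7.59% of windows did, and no matches in these windows overlapped. These matches describe letters and say nothing of whether a factor was bound.

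Il22 and Iltifb are paralogous copies, and their upstream windows share a nearly identical stretch, shown here because it was the matching part of those windows. The stretch begins 79 bases before the start in Il22 and 57 bases before it in Iltifb, and outside it the windows differed, with TATAAA found only in that of Il22 and the half-site only in that of Iltifb. It lies at chr10:118204885-118204938 on the plus strand for Il22 and at chr10:118295042-118295095 on the minus strand for Iltifb. Of its 54 bases 52 were identical (96.3%), and capitals mark the 2 that were not.
Il22: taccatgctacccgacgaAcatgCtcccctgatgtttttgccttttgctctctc
Iltifb: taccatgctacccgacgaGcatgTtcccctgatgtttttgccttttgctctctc
The bases that the probes of each row cover are not known here, so the values of Il22 and Iltifb are reported as possibly measuring both genes, with each value as its own probe set gives it.

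Values are on the log2 scale of the deposited table, to 2 decimals, and a difference is a difference of such values, which need not equal a ratio of RNA amounts. The medians of the arrays over all rows lay between 4.34 and 4.51, and values near or under them depend on background. The highest value, 19.93, is a ceiling shared by 3 to 25 rows of an array, so a difference from it is a bound and a pair at it gives none. Nr4a1 itself, read as a check of the labels, was at 18.11 in its own wild type and at 11.63 in the array labelled Nr4a1 knockout. It was at the ceiling in circZbtb20 wild-type cells and at 15.98 in circZbtb20 knockout cells, so it was lowest where the label puts its deletion. That value was still far above the median of its array, 4.34, and at its 95th percentile, 11.63, and where its probes lie relative to the deleted part is not known here, so the check does not settle the label. The 11 measured markers of ILC3s had a median of 15.27 and 15.35 in the circZbtb20 and Nr4a1 wild types and of 16.55 in the circZbtb20 knockout. On the array labelled Nr4a1 knockout that median was 5.48, while the median of 14 T cell markers was 15.70, against 5.25 to 6.31 on the other arrays. Of the genes of the sorting gate, Thy1 (CD90) was at 16.00 and Ptprc (CD45) at 15.93 there, and the other arrays lay between 10.41 and 12.36 for Thy1 and between 11.89 and 12.66 for Ptprc. That array therefore goes against its cell type label, and the cytokine values from it are those of a sample with this content. A smaller share of ILC3s in a sample and less RNA per ILC3 cannot be told apart in such bulk values.

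**Figure D1:**
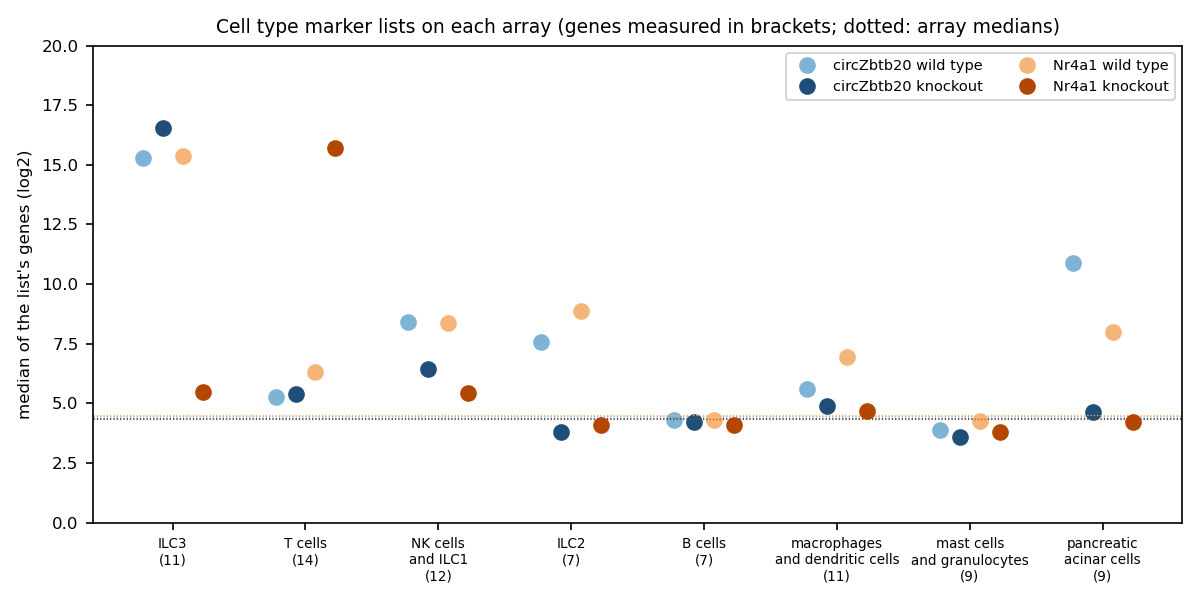
Median deposited value (log2, vertical axis) of the measured genes of 8 cell type marker lists on each array, 1 point per array, with dotted lines at the array medians. The array labelled Nr4a1 knockout has the lowest ILC3 point (5.48) and the highest T cell point (15.70).

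The levels of the members fell into 4 patterns over the arrays. Il17a, Il17f and Ifng were highest in the circZbtb20 knockout, and Csf2 and Il10 were highest in the wild types. Il22 and Iltifb were at or near the ceiling everywhere, and Il2 was below the array median everywhere. The range over the 4 arrays was 13.50 for Ifng, 12.34 for Csf2, 11.85 for Il17f and 11.45 for Il17a, against 3.74 for Il10 and 0.28 for Il2. No neighbours in these orders can be told apart by a replicate spread, so the difference between the wild types is given as the background.

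**Figure D2:**
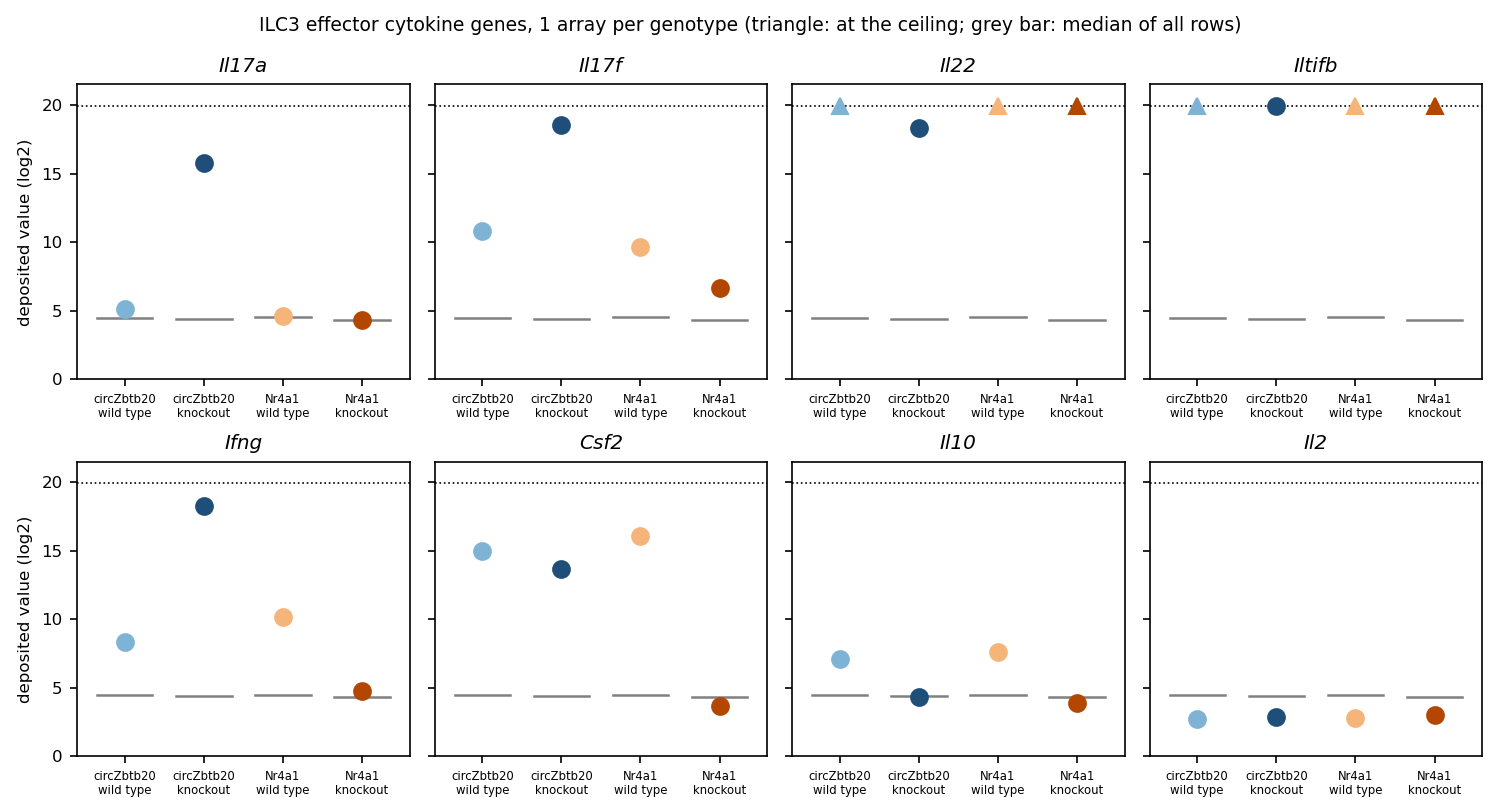
Deposited value (log2, vertical axis) of each of the 8 cytokine genes on the 4 arrays, 1 point per genotype; triangles are values at the ceiling of 19.93 (dotted line) and grey bars the array medians. Il17a, Il17f and Ifng stand highest in the circZbtb20 knockout, Csf2 drops to 3.71 in the array labelled Nr4a1 knockout, and Il2 stays between 2.76 and 3.04.

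In ILC3s without circZbtb20, set against their wild type, the IL-17 genes and Ifng were far higher, Il22, Il10 and Csf2 were lower, and Il2 was under the array median in both. The comparison asks how loss of the circular RNA changes gene expression in ILC3s. Differences are knockout minus wild type, and a gene counts as higher or lower where it differed at least 2-fold, a log2 difference of 1, and the higher value reached the median of its array. Of the 8 members, 7 passed that filter on low values and 6 were past the size, 3 higher and 3 lower. The background was high, since 46.7% of genes that passed the filter were past the size, 27.3% higher and 19.4% lower. Against the Nr4a1 wild type the members again gave 3 higher and 3 lower, beside 47.4% of genes, 26.4% higher and 21.0% lower. A count of 6 is therefore not a result about cytokines by itself. The differences of the 3 higher members ranked among the 5 greatest positive ones of the comparison. The members were chosen with earlier results of these data known, so these ranks are a description and no independent support. A large difference was also seen outside the members. The thymosin gene Tmsb4x was at 10.05 in the circZbtb20 knockout, against 19.85 in its wild type. On the Nr4a1 wild-type array it was at 19.88 and on the array labelled Nr4a1 knockout at 19.85. The reason for that low value was not tested.

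Il17a, the signature cytokine of type 17 lymphocytes, was at 5.10 in circZbtb20 wild-type cells and 15.79 in circZbtb20 knockout cells. In Nr4a1 wild-type cells it was at 4.60, and in the array labelled Nr4a1 knockout at 4.34. It was thus close to the array median on 3 arrays and high on 1. The difference of 10.69 ranked 2 among 6151 genes with a positive difference that passed the filter, and against the Nr4a1 wild type it was 11.19. Il17f, its paralog, was at 10.80, 18.51, 9.61 and 6.66 on the same arrays in the same order. Unlike Il17a it was well above the array medians in both wild types. Its difference of 7.71 ranked 5 among the same 6151 genes, and against the other wild type it was 8.90. Both genes kept the same order of arrays, with the circZbtb20 knockout highest and the array labelled Nr4a1 knockout lowest.

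Ifng was at 8.37 in circZbtb20 wild-type cells and 18.25 in circZbtb20 knockout cells. It was at 10.16 in Nr4a1 wild-type cells and 4.75 in the array labelled Nr4a1 knockout, and the circZbtb20 knockout thus stood above both wild types. Its difference of 9.88 ranked 3 among the positive differences, and it was 8.09 against the other wild type. The type 17 and type 1 cytokine genes were thus high on the same single array. T cells and NK cells also transcribe these genes, so their markers are given beside them. The T cell markers had a median of 5.39 in the circZbtb20 knockout and 5.25 in its wild type, with 5 of 14 higher and 3 lower. Cd3e, a defining chain of the T cell receptor complex, was at 5.30 against 6.44, Cd3g at 7.44 against 8.40 and Cd3d at 7.80 against 4.72. The others that were higher were the signalling genes Lat, by 2.32, and Zap70, by 2.15, and the CD8 chains Cd8b1, by 1.99, and Cd8a, at 5.61 against 4.41. Against the Nr4a1 wild type 3 of the 14 were higher and 6 lower. The list of 12 NK cell and ILC1 genes had 7 lower and 0 higher, its median was 6.45 against 8.42, and Eomes, a defining factor of NK cells, was at 3.77 against 5.77. Against the Nr4a1 wild type that list had 2 higher and 6 lower. The part of such cells in the cytokine values was not tested beyond these levels.

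Il22 was at the ceiling of 19.93 in both wild types and the array labelled Nr4a1 knockout, and at 18.34 in the circZbtb20 knockout. The knockout was therefore lower than either wild type, by a difference of -1.59 or more in size. The circZbtb20 knockout array had 3 rows and 0 genes at the ceiling, against 18 to 25 rows and 7 to 9 genes on the other arrays. Its 95th percentile, 11.89, was nevertheless the highest, with the others between 11.38 and 11.63. Iltifb was at the ceiling on the same 3 arrays and at 19.90 in the circZbtb20 knockout, a difference of -0.03 or more in size, which did not reach the rule. The copies thus gave unlike values on 1 array, where only the Il22 row was clearly under the ceiling.

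Csf2 was at 15.02 in circZbtb20 wild-type cells, 13.69 in circZbtb20 knockout cells, 16.05 in Nr4a1 wild-type cells and 3.71 in the array labelled Nr4a1 knockout. The circZbtb20 knockout lay under both wild types, with a difference of -1.33 from its own and of -2.36 from the other. The wild types themselves differed by 1.03, so the first of these is close in size to the background. Il10 was at 7.12, 4.35, 7.64 and 3.90 in the same order of arrays. Both knockouts were under the medians of their arrays for it, and its difference in the circZbtb20 comparison was -2.77, or -3.29 against the other wild type. Il2 was between 2.76 and 3.04 on all 4 arrays, under every array median, and passed the filter in no comparison. A limma fit that took both wild types as replicates of 1 group called none of the 8 members in this comparison, nor any other gene. Its differences were 10.94 for Il17a, 8.31 for Il17f and 8.99 for Ifng. That fit has 1 residual degree of freedom, from the pair of wild types. For Il22 and Iltifb both wild types were at the ceiling, so their spread in the fit was set by the ceiling and does not measure agreement.

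**Figure D3:**
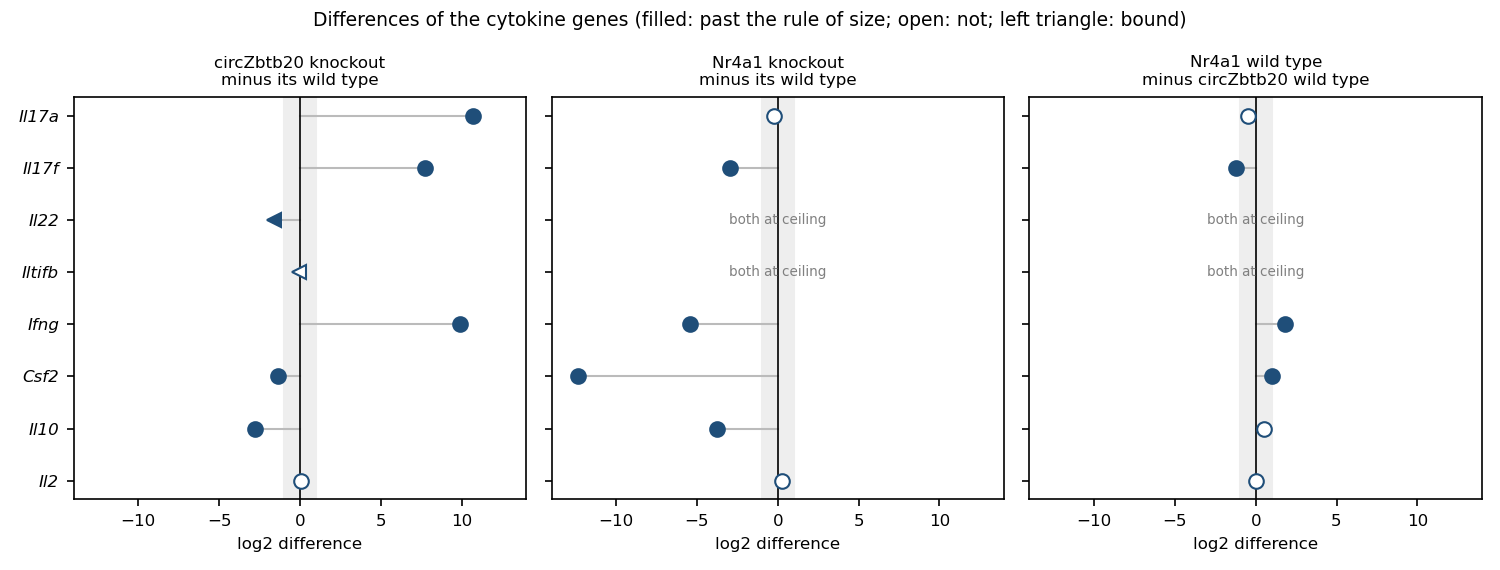
Log2 differences (horizontal axis) of the 8 cytokine genes in each knockout comparison and between the wild types, 1 array per genotype; filled points are past the rule of size, triangles are bounds and the grey band marks less than 2-fold. The circZbtb20 comparison has Il17a, Ifng and Il17f far to the right (10.69, 9.88 and 7.71), and the Nr4a1 comparison has Csf2 far to the left (-12.34).

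Between the array labelled Nr4a1 knockout and its wild type, Csf2, Ifng, Il10 and Il17f were lower, and no member was higher. The question of this comparison is which genes change in ILC3s that lack Nr4a1. Here 7 of the 8 members passed the filter and 4 were past the size, beside 52.7% of genes that passed it, 31.9% higher and 20.8% lower. Il22 and Iltifb are among the 7 but were at the ceiling on both arrays and could not be called. The shares over all genes leave out genes at the ceiling on both arrays. Against the circZbtb20 wild type the count was again 4 lower and 0 higher, beside 53.2%, of which 32.8% higher and 20.4% lower. The median difference over the 6 members with a difference, Il2 included, was -3.34, beside 0.00 over all genes without the filter and 0.29 over those that passed it. All of these values come from the array on which 11 of 11 measured ILC3 markers were lower and 13 of 14 T cell markers higher. Kit, a receptor of ILC3s, was at 5.48 there against 18.36, Il23r at 4.73 against 15.43, and Cd3e at 18.92 against 8.88. The part of this cell content in the cytokine differences was not tested. The limma fit called Csf2 (adjusted p of 0.0159) and Il10 (adjusted p of 0.029) here, beside 11.2% of genes, and gave 0.0552 for Il17f and 0.0657 for Ifng.

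Csf2 differed by -12.34, rank 7 among 4697 genes with a negative difference, and by -11.31 against the circZbtb20 wild type. It went from far above the array median to a value under it. The differences of Ifng were -5.41 and, against the other wild type, -3.62. Those of Il10 were -3.74 and -3.22, and those of Il17f -2.95 and -4.14. For Il17a the difference was -0.26, from a wild-type value already near the array median, so a further loss could hardly be measured. Il22 and Iltifb were at the ceiling on both arrays, which leaves a difference of any size above that value unmeasured. Il22 was thus at the ceiling on an array where the ILC3 marker median was 5.48.

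The same comparison was made between the wild types, as the only measure of how much these genes vary without a knockout. Of the 8 members 7 passed the filter and 3 were past the size, beside 15.3% of genes that passed it, 8.48% higher and 6.77% lower in the Nr4a1 wild type. Il22 and Iltifb, among the 7, were at the ceiling in both wild types and could not be called, and the shares leave out such genes. Ifng differed by 1.79, Csf2 by 1.03 and Il17f by -1.19, while Il17a was at -0.50 and Il10 at 0.52. These wild-type differences are smaller than those of Il17a, Il17f and Ifng in the circZbtb20 comparison and of all 4 lower members in the Nr4a1 comparison. After quantile normalization of the 4 arrays the difference of Csf2 between the wild types was 0.84, under the 2-fold size.

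**Figure D4:**
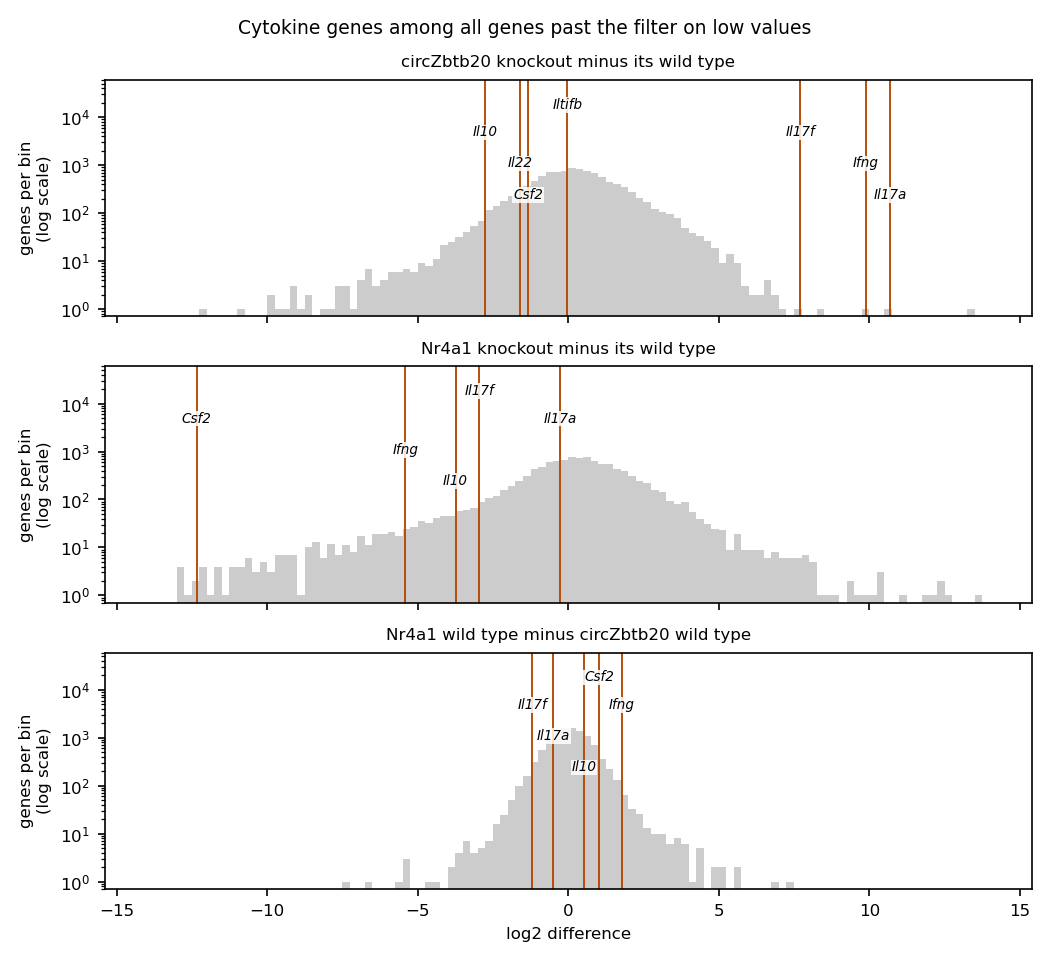
Histograms of log2 differences (horizontal axis, bins of 0.25) of the genes that passed the low-value filter, with the number of genes on a logarithmic vertical axis and lines at the cytokine genes. Il17f, Ifng and Il17a lie at the right edge in the circZbtb20 comparison, Csf2 at the left edge in the Nr4a1 comparison, and all measured members lie between -1.19 and 1.79 between the wild types.

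The genes whose pattern over the 4 arrays was most like each member were found by the root mean square difference of values centred on the mean of each gene, over 11515 genes off the ceiling. This measure uses 4 values a gene and is a description. For Il17a they were Gdpd3, a lysophospholipase D gene, at a distance of 0.94, Il17f at 1.45 and Pmpcb, a mitochondrial processing peptidase, at 1.5. For Il17f they were Cpe, a carboxypeptidase, at 0.71, Mapkapk2, the kinase downstream of p38, at 1.04 and Plagl1, a zinc finger factor, at 1.04. For Ifng the nearest gene was Il17f, at 1.21, followed by Cpe at 1.55 and Mapkapk2 at 1.62. Csf2 was nearest to the inhibitory receptor gene Lilrb4a at 0.62, the hypoxia factor Epas1 at 0.69 and Odc1, of polyamine synthesis, at 0.72. Il10 was nearest to Anxa4, an annexin, at 0.13, to Deptor, an inhibitor of mTOR, at 0.16 and to Lmo7 at 0.22. Il10 also had a smaller range over the arrays than the other 4 of these members, which bears on how small its distances can be.

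Receptors for these cytokines split in the circZbtb20 comparison, with 4 of 12 measured genes higher and 3 lower. Counts in this and the following lists are over the genes measured, while the shares over all genes are over those that passed the filter. Their median of 0.12 stood beside 0.04 over all genes without the filter and 0.17 over those that passed it. Il10rb, the chain shared by the IL-22 and IL-10 receptors, was at 11.19 against 8.40, a difference of 2.79, and Il17rc, a chain of the IL-17 receptor, was higher by 1.88. Ifngr1 and Ifngr2, the interferon gamma receptor chains, were higher by 1.67 and 1.00, and Ifngr2 was no longer past the size against the Nr4a1 wild type (10.22 against 9.82). Il2ra, which gives the IL-2 receptor its high affinity, was at 7.18 against 12.22 and so differed by -5.04, and Il22ra2, the soluble antagonist of IL-22, was at 3.10 against 4.91, a difference of -1.81. In the Nr4a1 wild type Il22ra2 was at 4.16, under the array median. In the Nr4a1 comparison 6 of the 12 were lower and 1 higher, and the median was -1.02 beside 0.00 over all genes without the filter. Il2ra differed by -7.50 and Il2rb, which IL-2 and IL-15 share, by -6.16, while Il17ra was higher by 2.22. Csf2ra, at 1.80, was the gene past the size between the wild types.

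Inducing cytokines, which act on the cells that make the members, were mostly lower where they differed, with Il15 as the exception in the circZbtb20 comparison. In the circZbtb20 comparison 4 of 11 were lower and 1 higher, 6 of the 11 passed the filter, and the median was -0.55. Il6 was at 9.07 against 12.53, Tgfb1 at 12.64 against 15.95 and Il1b at 10.94 against 13.57, and Il1a differed by -3.0. Il15, which shares receptor chains with IL-2, was at 6.47 against 3.81. Il23a, the IL-23 subunit, stood under the array median on all 4 arrays, between 2.87 and 4.0. On the array labelled Nr4a1 knockout 4 were lower and 0 higher, the median was -0.94, and Il6 and Il1b differed by -11.08 and -11.01. The wild types differed too, by 1.81 for Il1b and 1.73 for Il6. Myeloid cells make both, and of 11 measured macrophage and dendritic cell markers 0 were higher and 3 lower in the circZbtb20 comparison, with 7 lower against the other wild type. In the Nr4a1 comparison 0 were higher and 6 lower, and between the wild types 4 were higher and 0 lower, Cd14 by 3.38 and Lyz2 by 2.27 among them. Their part in the values of Il1b and Il6 was not tested.

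The receptors that answer those inducers differed between the IL-23 and IL-12 arms in the circZbtb20 knockout. Il23r, the receptor for IL-23, was at 18.29 against 16.38, a difference of 1.91, and Il12rb2, the IL-12 receptor chain that signals through STAT4, was at 8.13 against 14.07, a difference of -5.94. Il12rb1, which both receptors share, was at 5.39 against 4.75 and did not reach the size. Tnfrsf25, the receptor for TL1A, was higher by 3.90, Il18r1 by 1.01 and Il7r by 1.42, while Il1r1 differed by -1.38 and Tgfbr2 by -1.61. Against the Nr4a1 wild type Il18r1 (14.17 against 13.40) and Il1r1 (13.89 against 14.44) did not reach the size. In all, 4 of 14 were higher and 3 lower, and their median was -0.28. Il23r, Il1r1, Il7r and Tnfrsf25 also stand among the ILC3 markers, of which 6 of 11 were higher and 4 lower in that knockout. Against the Nr4a1 wild type the array labelled its knockout had 9 of 14 lower and 3 higher, and the median was -1.55. Il23r differed by -10.70, Il1r1 by -9.09, Il18rap by -7.53 and Il18r1 by -7.07, and Il6st, the shared IL-6 receptor chain, was higher by 5.71.

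Among 26 measured transcription factors that act on the cytokine genes, the circZbtb20 knockout had 5 higher and 11 lower than its own wild type (median -0.56). It had 5 higher and 14 lower than the Nr4a1 wild type (median -1.11). Batf, an AP-1 partner needed for Il17a and Il17f, was at 13.83 against 9.05, and at 10.99 in the other wild type. Prdm1, the gene of BLIMP1, was higher by 2.35, Runx3, a partner of T-bet at Ifng, by 1.69, and Junb, an AP-1 subunit, by 1.52. Nfkbiz, a nuclear co-factor for Il17a, was at 15.15 against 13.58, but its value in the Nr4a1 wild type was 14.97. The NF-kB subunit Rela differed by -3.97 and Bcl6, a repressor, by -3.62. Rora, Stat3 and Tbx21 did not reach the size. Rora was at 18.37 against 17.43, Stat3 at 15.78 against 15.02 and Tbx21, the gene of T-bet, at 7.38 against 6.53. Ahr, which acts on Il22, was at 6.57 against 7.78, and Stat4, which acts on Ifng, at 14.39 against 16.04, both past the size. Ahr was thus lower as Il22 was in this comparison, and Stat4 lower where Ifng was higher. The difference of Ahr, -1.21, was smaller in size than the 1.61 between the wild types. On the array labelled Nr4a1 knockout Ahr was at 4.54, against 9.39 in its wild type, while Il22 was at the ceiling on both. Any link between these factors and the cytokine values was not tested. In the other knockout comparison 21 of the 26 were lower and 1 higher, and the median was -2.53. Rora differed by -11.79, Nfkbiz by -8.54, Stat4 by -8.38 and Junb by -8.21. Between the wild types 6 were higher and 0 lower, Batf by 1.94 and Ahr by 1.61 among them.

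Response genes of interferon gamma did not stand with Ifng in the circZbtb20 knockout. Of 19 measured, 4 were higher and 5 lower (median -0.46), and with the Nr4a1 wild type as control 1 was higher and 5 lower (median -0.40). Cxcl10, a chemokine gene induced by interferon gamma, was at 7.80 against 12.03 and Irf1, an early factor of the response, at 11.18 against 13.83. Socs1, a feedback inhibitor, was at 4.36 against 6.51, while Psmb9, of the immunoproteasome, was at 8.12 against 6.39. The Nr4a1 comparison had 10 lower and 2 higher, and their median was -1.19. Cxcl10 differed there by -8.49, Cxcl9 by -4.46 and Cd274, the gene of PD-L1, by -4.05, while Psmb8 was higher by 3.59.

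Response genes of IL-2 and IL-10 were mostly lower in both comparisons, with 6 of 8 lower and 1 higher in the circZbtb20 comparison and a median of -1.70. Against the other wild type 7 were lower and 0 higher. Socs2 was at 11.04 against 14.34, Bcl3 at 7.54 against 10.29 and Socs3, a STAT3 target that restrains IL-6 and IL-23 signals, at 3.45 against 5.32. The list includes Il2ra, given above, which is also a receptor. For Nr4a1 7 were lower and 0 higher, the median was -6.29, and Socs2, Pim1 and Cish differed by -9.06, -8.17 and -6.83. Between the wild types 5 of the 8 were higher and 0 lower, and their median was 1.05. The called differences lay between 1.04 and 1.39, and 2 of the 8 genes were past the size after quantile normalization and 0 at a log2 difference of 2.

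Other lymphocyte cytokines gave a contrast to the type 17 and type 1 members. In the circZbtb20 knockout 4 of 25 were higher and 7 lower, 17 of the 25 passed the filter, and the median was -0.22. Ltb, a lymphotoxin subunit, was at 11.99 against 6.90, Hbegf, an EGF-family growth factor, was higher by 2.56 and Tnfsf11, the gene of RANKL, by 1.12. Tnf was at 9.08 against 6.98, but at 9.24 in the Nr4a1 wild type, so its difference held against only 1 of the wild types. The type 2 cytokine genes were among the lower ones: Il5 was at 3.58 against 11.74, Il4 at 2.89 against 7.56 and Il13 at 5.65 against 7.82. Lif, of the IL-6 family, was at 5.20 against 9.39. Beside them, the ILC2 list had a median of 3.81 against 7.56 and 5 of its 7 measured genes were lower, although Il4, Il5 and Il13 are themselves 3 of those 7. Markers of pancreatic acinar cells moved with this comparison too, with a median of 4.64 in the circZbtb20 knockout, 10.89 in its wild type and 8.01 in the other, and their part in the lower cytokine values was not tested. In the Nr4a1 comparison 13 of the 25 were lower and 1, Ltb, was higher, the median was -1.32, and Il6, Lif, Il5 and Il13 differed by -11.08, -6.25, -6.19 and -5.53.

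**Figure D5:**
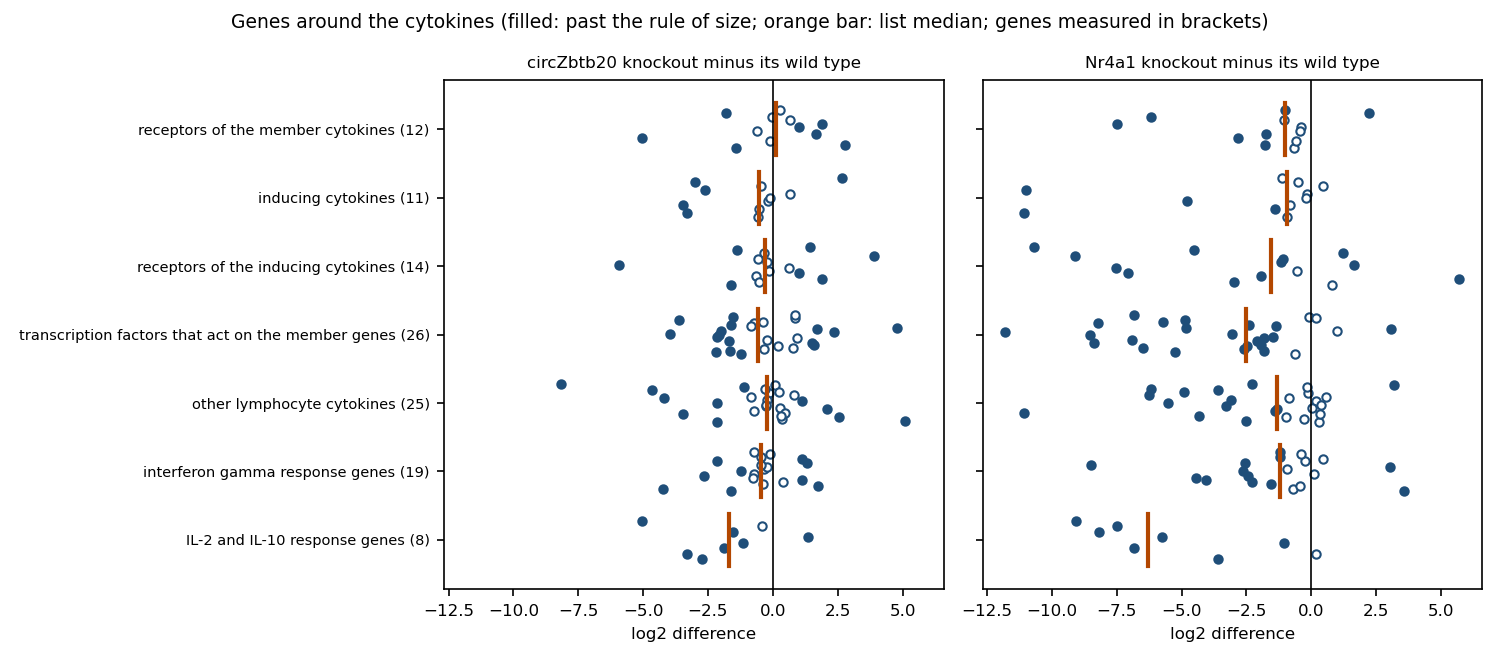
Log2 differences (horizontal axis) of the genes of 7 lists around the cytokines in both knockout comparisons, 1 point per gene, filled where past the rule of size, with the list median as an orange bar. The medians lie between -1.70 and 0.12 in the circZbtb20 comparison and between -6.29 and -0.94 in the Nr4a1 comparison.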

How the data were processed

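One array was measured for each of 4 genotypes. Per the submitters' processing notes, the authors made the deposited values with Affymetrix Power Tools and RMA, and their range of 2.13 to 19.93 shows a log2 scale. Versions, settings, the genome build and the reason for the shared highest value are not stated in the sources used here, and whether the usual RMA scale was kept is unknown. Rows were named through a table of the platform's probes: 19571 of 22205 had 1 gene symbol, 2634 had none, and 55 genes had several rows, of which the one highest on average was kept. Detection calls were not used here. Differences were taken on the deposited values, and called at 2-fold (1 on the log2 scale) where the higher value reached its array's median. Named genes were the 8 members, up to 4 genes with the greatest difference past the rule in each of 7 lists and comparison, with further list members given as context after their values were seen, and the 3 nearest genes in pattern to each member off the ceiling. The sequences of Il17f and of the Il22 pair were added after the values were seen. The members and lists were chosen with earlier results of these data known. Alternatives were other scalings, controls, sizes, filters and row choices, and limma 3.58.1 (R 4.3.3) with both wild types as 1 group of 2. The rule and the fit were run on simulated data with known changes. For both the rule and the fit the simulated noise was smaller than the spread between the wild types. Those runs therefore check the calculation and do not give the rate of false calls in these data.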

Additional observations from a re-analysis of the deposited data

How the results depend on the processing

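No member past the 2-fold size changed direction under any alternative run. Of 88 recomputed member differences, 80 moved by less than the SD of the difference between the wild types over all genes past the filter, 0.79. The 8 others moved with the wild type used (the other, or the mean of both). Part of this stability was fixed in advance. Averaging the rows of a gene cannot change members with 1 row each, and centring shifts all members of a comparison by the same amount. With a log2 difference of at least 2, 3 members were higher and 1 lower in the circZbtb20 comparison, 0 members were past the size between the wild types, and the genes past it numbered 2038 (circZbtb20), 2795 (Nr4a1) and 204 (wild types), against 5192, 5901 and 1631 at a difference of 1. Quantile normalization moved the median difference of genes that passed the filter from 0.17 to 0.06 in the circZbtb20 comparison and from 0.29 to 0.16 in the Nr4a1 comparison, and centring the arrays moved it to 0.27 and 0.46. Without the filter it was 0.04 and 0.00. With the pair of wild types pooled as replicates, limma's adjusted p called none of the 8 members and no other gene in the circZbtb20 comparison. For Il22 and Iltifb both wild types were at the ceiling, so the spread that the fit used for them was set by the ceiling. Il17a, Il17f and Ifng had the same adjusted p, the smallest in that fit, although their unadjusted p differed. The adjusted p was thus shared between genes and does not rank them. In the Nr4a1 comparison it called 2 members, Csf2 at 0.0159 and Il10 at 0.029, beside 2180 genes (11.2%). That fit assumes that a knockout varies like the wild types. No paired analysis was possible because each genotype has 1 array and the labels give no replicate numbers.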

Other observations

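The members lie in small groups on the chromosomes, by the order of protein-coding genes in RefSeq. Il17a and Il17f are next to each other, and the genes on either side, Pkhd1 and Mcm3, differed by -0.26 and 0.62 in the circZbtb20 comparison, against 10.69 and 7.71 for the pair. Il22, Iltifb and Ifng follow one another, between Mdm1 and Dyrk2, which differed by 0.48 and 0.18, so the difference of 9.88 for Ifng was not shared by its neighbours. Il3, next to Csf2, was between 3.05 and 3.72 on all arrays, and Il21, next to Il2, between 3.65 and 3.95, all of them under the array medians. Il10 lies between Il19 and Mapkapk2. Il19 was between 2.89 and 3.73, while Mapkapk2, chosen by its pattern above as a gene like Il17f, was at 15.54 in the circZbtb20 knockout against 10.07 in its wild type, the direction opposite to Il10.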
